A study of Rattus norvegicus with 108 samples.

Results

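The genes followed here were Gad1 and Gad2, whose enzymes make the transmitter GABA, Slc32a1, whose protein loads GABA into synaptic vesicles, and 6 genes used to tell classes of GABA neurons apart: Sst, Npy, Vip, Cck, Lhx6 and Erbb4. They were chosen by their symbols, by a rule that used no measured value, and all 9 were found among the 19127 genes of the UMI count tables of both brain regions. UMIs are molecular tags that count captured transcripts. The questions were in which cells the 9 genes were detected together, at what level each dorsal cell type held them, and whether they differed between regions and with treatment.

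The series profiled dentate gyrus of male rats by droplet sequencing of transcript 3' ends. Rats were 2 months old at the start and received fluoxetine (FT), a selective serotonin reuptake inhibitor, at 18 mg/kg body weight, or water alone (Sham), over 6 weeks. Tissue was punched separately from the dorsal (dorDG) and the ventral (venDG) dentate gyrus. The labels name the rats by their supplier, Charles River, and the study's methods name the strain as Long-Evans. The 4 groups were dorDG_FT with 4 replicates (1, 2, 4 and 5), and dorDG_Sham, venDG_FT and venDG_Sham with 5 replicates each. No group carried a transgene or a deleted gene. By the study's methods a replicate pooled several animals, so an animal cannot be told from its pool, and p-values measure the spread between pools.

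GABA is made from glutamate by a pair of related enzymes, the larger one encoded by Gad1 and the smaller, synapse-enriched one by Gad2, and a neuron that releases it needs the vesicular transporter of Slc32a1 as well. In the dentate gyrus, GABA neurons lie mainly in the hilus and along the granule cell layer and restrain the glutamatergic granule cells. Their classes are told apart by the peptides they make, somatostatin (Sst), neuropeptide Y (Npy), vasoactive intestinal peptide (Vip) and cholecystokinin (Cck), by the transcription factor Lhx6 of neurons born in the medial ganglionic eminence, and by the neuregulin receptor Erbb4. Erbb4 is also known in oligodendrocyte precursors, and Cck and Gad1 are known at lower levels in some glutamatergic neurons of the hippocampus.

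The tables held 3347 cells, 1289 of dorDG and 2058 of venDG, from 27 reactions, with 42 to 384 cells and 220162 to 1523537 UMIs per replicate. In 1226 cells under 2% of the UMIs came from 121 ribosomal protein genes, and such low-ribosomal cells took 14.5 to 42.1% of dorDG_FT replicates, 31.9 to 72% of dorDG_Sham, 16.9 to 50.3% of venDG_FT and 18.9 to 61.9% of venDG_Sham. Replicates 1 and 2 of each group came from 2 reactions, of which the first held 4.08 to 15.5% and the second 78.3 to 95.9% such cells. The labels speak of nuclei and the methods of cell and of nucleus suspensions, and neither says which reaction held which. Only 9 barcodes occurred in more than 1 reaction.

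The 147 dorDG cells that the authors named InhibNeuron held Gad1 and Gad2 in a minority of cells and no UMI of Slc32a1. Gad1 gave 30 UMIs in 25 of the cells (17.0%) and Gad2 gave 22 UMIs in 19 (12.9%), and 3 cells held both. Slc32a1 was at 0, where 0 of 147 cells allows up to 2.04% of cells with a UMI, a limit on detection and not on cells that express the gene. Lhx6 was at 0 as well, and so were Dlx1, Dlx5, Dlx6 and Maf, 4 of the 11 interneuron transcription factors in the table. The other 7 were above 0, with Sox6 in 130 cells, Zeb2 in 140 and Prox1 in 99, factors that are also known in glia or granule cells.

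The same cells held genes of glutamatergic and granule neurons. Slc17a7, which encodes a vesicular glutamate transporter, was found in 114 of the 147 InhibNeuron cells (77.6%) at 3.21 UMIs per 10000, between 5.20 in the 55 cells named ExcitNeuron and 1.12 in the 119 named Granule. Prox1, the granule cell factor, was found in 67.3%. Summed over a list of 6 inhibitory neuron markers, InhibNeuron reached 0.799 UMIs per 10000 with 3 of the 6 genes at 0, against 1.30 in ExcitNeuron and 1.27 in Granule. Wider lists ran the other way, with 16.7 in InhibNeuron, 14.1 in ExcitNeuron and 12.5 in Granule for interneuron transcription factors, and 9.66, 8.99 and 6.62 for GABA handling. The defining markers thus did not set these cells apart as GABA neurons, and below InhibNeuron stands for the authors' label alone. Low-ribosomal cells made up 79.6% of it.

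In dorDG the summed UMIs of Gad1, Gad2 and Slc32a1 had their highest levels in the neuronal types Granule, ExcitNeuron and InhibNeuron, whose order rested on 5 cells. Their levels were 0.755 (95% exact Poisson interval 0.513 to 1.07), 0.699 (0.468 to 1.0) and 0.513 (0.383 to 0.672) UMIs per 10000, where the intervals cover counting error only. Oligodendrocyte precursors (OPC) followed at 0.378, and 7 types from Microglia2 to Mossy ran from 0.311 down to 0.191. BergGlia held none in its 43 cells, where 3 UMIs would have been 0.603. Between replicates the SD was 0.526 in Granule and 0.340 in ExcitNeuron, so neither type differed from its neighbour beyond the spread. Of the UMIs, 15 of 31 in Granule lay in 3 cells and 15 of 29 in ExcitNeuron in 2 cells, and without cells of at least 4 such UMIs the levels were 0.411 and 0.340, below the 0.513 of InhibNeuron, which had no such cell. At least 1 of these UMIs was found in 27.9% of InhibNeuron cells, 29.1% of ExcitNeuron and 13.4% of Granule.

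**Figure D1:**
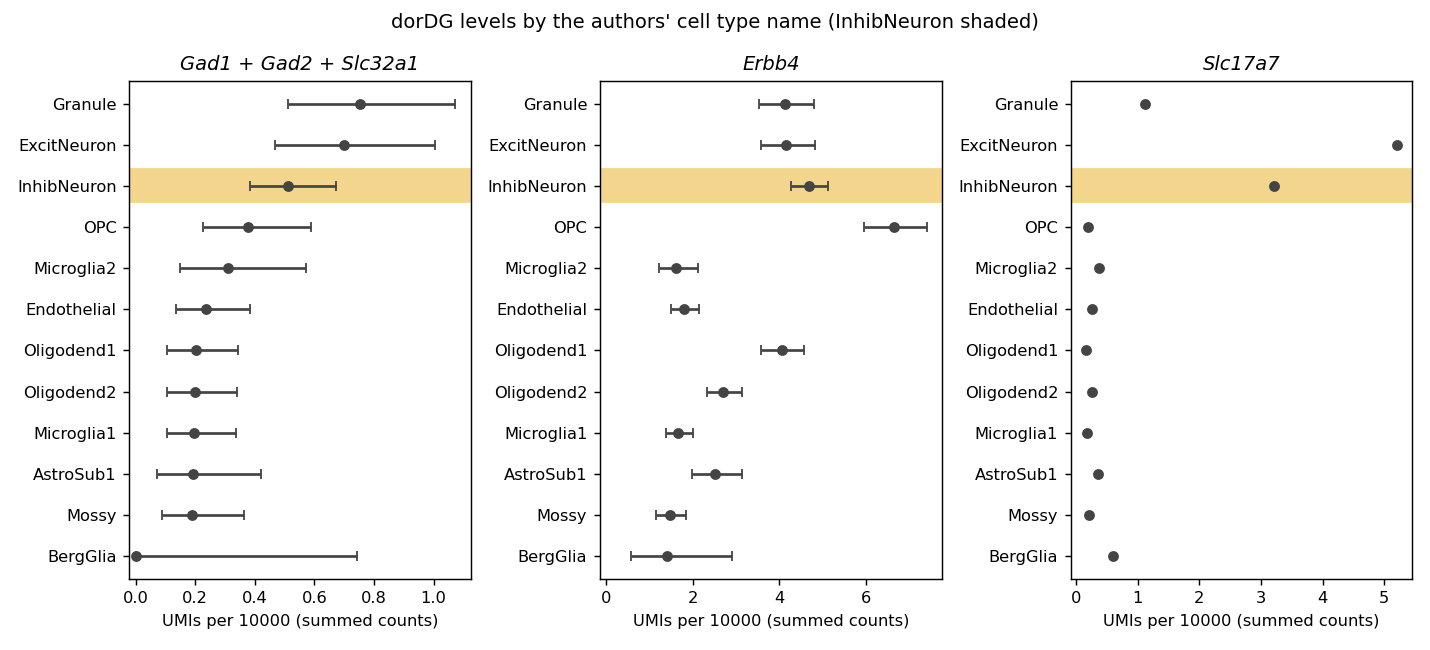
Levels in the 12 dorDG cell types in UMIs per 10000 for the sum of Gad1, Gad2 and Slc32a1, for Erbb4 and for Slc17a7. Points are levels from summed counts and bars in the first 2 panels are 95% exact Poisson intervals. InhibNeuron, shaded, lay below Granule and ExcitNeuron for the GABA genes, an order that turns without 5 cells, and below OPC for Erbb4.

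Taken gene by gene, the synthesis and transport genes did not share 1 leading type. Gad1 was highest in Granule at 0.487, followed by ExcitNeuron at 0.337 and InhibNeuron at 0.296 UMIs per 10000. Gad2 was highest in InhibNeuron at 0.217, with Granule at 0.195 and ExcitNeuron at 0.145. Slc32a1 was highest in ExcitNeuron at 0.217, but its 9 UMIs there lay in 2 cells, and 7 types were at 0. For comparison with cells that should lack them, Gad1 was found in 8.41% of the cells named Microglia1, with a median of 6669 UMIs per cell, against 17.0% in InhibNeuron at a median of 5846.

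The peptide genes were sparse in dorDG. Cck was highest in ExcitNeuron at 3.85 UMIs per 10000, where 160 UMIs lay in 14 cells and 69 of them in 1 cell, and it was lowest in InhibNeuron at 0.138. Npy gave 24 UMIs in 4 ExcitNeuron cells (0.578), and 7 types were at 0. Sst stood at 0.0974 in Granule, 0.0723 in ExcitNeuron, 0.0443 in Endothelial, 0.0398 in OPC and 0.0394 in InhibNeuron, which are 2 to 4 UMIs each. Vip stood at 0.0487 in Granule, 0.0455 in Microglia1, 0.0424 in Mossy and 0.0394 in InhibNeuron, so neuronal and other types were at like levels. Lhx6 gave 1 UMI in Granule and 1 in Oligodend2 and was at 0 in the rest.

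Erbb4 was detected in every dorDG type. Its level was highest in OPC at 6.66 UMIs per 10000, followed by InhibNeuron at 4.69, ExcitNeuron at 4.17, Granule at 4.14 and Oligodend1 at 4.06, and it was lowest in Mossy at 1.46 and BergGlia at 1.41. The SD between replicates was 2.31 in OPC, 1.44 in InhibNeuron, 2.43 in ExcitNeuron and 1.84 in Granule, so these 4 types did not differ from their neighbours beyond the spread. The largest step in level was from OPC to InhibNeuron. Oligodend1 was followed by Oligodend2 at 2.71, with SDs of 1.05 and 1.26. With each cell thinned to 1500 UMIs, Erbb4 was found in 63.0% of OPC cells, 54.4% of InhibNeuron, 44.8% of Granule and 13.2% of Mossy.

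Within cells, detection of Gad1 went along with that of the other GABA genes, though most Gad1 cells held only 1 UMI of it. Gad1 was found in 260 of the 3347 cells (7.77%), 203 of them with 1 UMI, Gad2 in 142 (4.24%) and Slc32a1 in 37 (1.11%). Of the 260 Gad1 cells, 26 held Gad2 (10.0%, 95% Wilson interval 6.92 to 14.2%), against 3.76% of the 3087 cells without Gad1. Slc32a1 was found in 21 Gad1 cells (8.08%) and in 0.518% of the others. Gad1 cells were also the deeper ones, with a median of 5806.5 UMIs against 3399. With all cells thinned to 1500 UMIs, 5 of 86 Gad1 cells held Gad2 (5.81%, 2.51 to 12.9%), against 1.89% of the others.

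Slc32a1 had the strongest overlap with Gad1 of the 9 genes. Gad1 was found in 21 of the 37 Slc32a1 cells (56.8%, 40.9 to 71.3%), against 7.22% of cells without Slc32a1. Gad2 was found in 8 of the 37 (21.6%), Sst in 9 (24.3%) and Cck in 17 (45.9%), the last against 12.6% of the others. Erbb4 was found in 20 of them (54.1%), close to the 52.7% of the others.

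Cells with Sst or Npy held Gad1 in larger shares than cells without them, and some held both peptide genes. The shares in this paragraph and the last were taken without thinning, so depth was not held equal between the cells compared. Gad1 was found in 23 of the 92 Sst cells (25%), against 7.28% of cells without Sst. Of the 19 Npy cells, 7 held Sst (36.8%, against 2.55% of the others) and 8 held Gad1 (42.1%), at a median depth of 10591 UMIs. Vip was found in 2 of the 92 Sst cells (2.17%), against 1.60% of the others. The 54 Vip cells held Gad1 in 8 cases (14.8%) and Gad2 in 7. Of the 434 Cck cells, 55 held Gad1 (12.7%, against 7.04% of the others), so most cells with Cck had no UMI of Gad1. The 9 Lhx6 cells held Gad1 in 2 cases, Gad2 in 1 and Sst in 1.

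UMIs of Npy, of Cck and, in venDG, of Sst were concentrated in a few cells, while those of Erbb4 and Vip were spread. Of the 92 Sst cells, 91.3% held 1 UMI, and the highest held 81 and then 19. One cell gave 42.0% of all Sst UMIs in venDG, and 1 cell gave 48.4% of Npy UMIs in dorDG and 58.8% in venDG. The highest Cck cells held 118 and 69 UMIs. For Erbb4, found in 1763 cells (52.7%), no cell gave more than 2.41% of a region's UMIs, and the 61 UMIs of Vip lay in 54 cells. A level of Sst, Npy or Cck in a replicate could thus rest on 1 cell, and below the value without that cell is given for the replicates that stand highest.

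The cells with the most GABA transcripts were few. At least 4 UMIs summed over Gad1, Gad2 and Slc32a1 were found in 25 cells of 11 replicates, 5 of dorDG_FT, 1 of dorDG_Sham, 17 of venDG_FT and 2 of venDG_Sham, by a limit of 4 that was set after the counts had been seen. Their depth ran from 858 to 18264 UMIs with a median of 5541, and 14 were low-ribosomal. Of the 25, 22 held more than 1 of the 3 genes and 6 held all 3, which the choice of these cells favours. Slc17a7, which was not used to choose them, was found in 3.

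Cells with fewer GABA transcripts held the glutamate transporter gene in larger shares. In dorDG, Slc17a7 was found in 17 of the 24 cells with 2 to 3 such UMIs (70.8%, median depth 10417.5 UMIs) and in 1 of the 6 with at least 4 (median 5068.5). In venDG the counts were 15 of 40 cells (37.5%, median 4704.5) and 2 of 19 (10.5%, median 5541). Snap25, a synaptic gene of neurons in general, was found in 22 of the 25, and Mbp, a myelin gene of oligodendrocytes, also in 22. These are counts over cells of few replicates and were not tested.

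Class genes split the 25 cells. Sst was found in 8, Npy in 3, Vip in 2, Cck in 12, Lhx6 in 1 and Erbb4 in 16, and 19 held at least 1 of the 4 peptides. No cell held Sst with Vip, which 8 and 2 cells of 25 are too few to read, and 2 held Sst with Npy. Of class genes outside the 9, Sox6, a factor of neurons of the medial ganglionic eminence, was found in 17. Sox6 is also known in glia and was found in most InhibNeuron cells, so it does not assign these cells to a class. Reln, which encodes the secreted protein reelin, was found in 14, and the cannabinoid receptor gene Cnr1 and Dlx1 in 9 each. Pvalb, which encodes the calcium-binding protein of fast-spiking basket cells, was found in none.

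Single cells show these combinations. A cell of venDG_FT replicate 3 held 81 UMIs of Sst with 4 of Gad1, 1 of Slc32a1 and 2 of Erbb4 and none of Cck. Another cell of that replicate held 43 UMIs of Cck with 2 of Gad1, 4 of Gad2, 1 of Vip and 16 of Erbb4. In venDG_FT replicate 5, 1 cell held Gad1 (6 UMIs), Slc32a1 (5), Sst (4), Npy (2) and Erbb4 (12). Gad1 and Erbb4 were found in each of these 3 cells. Of the 6 dorDG cells, the authors had named 3 Granule, 2 ExcitNeuron and 1 Microglia2, and none InhibNeuron.

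A wider class of GABA cells, with at least 2 UMIs over Gad1, Gad2 and Slc32a1, held 89 cells, 30 in dorDG (2.33%) and 59 in venDG (2.87%). Of the 30 in dorDG, 11 were named InhibNeuron, 6 Granule and 4 OPC, and the other cells lay in 6 types, glial and endothelial ones among them. Most dorDG cells with 2 to 3 such UMIs also held Slc17a7, as given above. Below, GABA cell therefore stands for this limit on UMIs alone and not for a cell type. The share per replicate was 2.80, 2.03, 0.763 and 4.04% in dorDG_FT replicates 1, 2, 4 and 5 and 3.48, 2.17, 2.00, 2.22 and 0.862% in dorDG_Sham replicates 1 to 5. It was 4.85, 3.65, 3.50, 0.568 and 4.20% in venDG_FT and 1.81, 2.84, 4.76, 0.995 and 1.69% in venDG_Sham. The groups overlapped in both regions.

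By group, the share of GABA cells was 2.41 ± 1.37% (SD, n = 4) in dorDG_FT and 2.15 ± 0.929% (n = 5) in dorDG_Sham, a difference of 0.26 percentage points (two-sided exact permutation p = 0.746). In venDG it was 3.35 ± 1.64% with FT and 2.42 ± 1.47% in Sham, a difference of 0.93 (exact permutation p = 0.357, n = 5 each). The share in dorDG minus that in venDG was -0.61 points (p = 0.345 by the exact permutation test). With the class drawn at 3 UMIs the dorDG difference was 0.70 (exact permutation p = 0.0476, n = 4 and 5), which rests on 5 cells against 2.

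In venDG, Erbb4 had higher levels in cells with more GABA transcripts, and in dorDG the order broke off among the richest cells. In venDG its level went from 2.39 UMIs per 10000 in the 1825 cells with no UMI of Gad1, Gad2 or Slc32a1 to 4.14 with 1 UMI, 6.58 with 2, 8.03 with 3 and 13.3 in the 19 cells with at least 4. Erbb4 was found in 13 of these 19 cells, and 59 of its 157 UMIs there lay in 1 cell. In dorDG the Erbb4 level was 2.98 with none, 4.15 with 1 and 6.87 in the 23 cells with 2, then 0 in the 1 cell with 3 and 5.61 in the 6 with at least 4. Compared within the 6 venDG replicates that held enough GABA cells, Erbb4 averaged 8.93 in GABA cells and 2.78 in the others, a difference of 6.15 ± 5.02 (SD), higher in 5 of 6 (two-sided exact sign-flip permutation p = 0.0625, Benjamini-Hochberg adjusted over 12 comparisons 0.375). In dorDG it averaged 5.38 against 2.89, higher in 6 of 6 replicates (exact permutation p = 0.0313, adjusted 0.375), where 0.0313 is the smallest p that 6 replicates allow.

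Whether the Erbb4 difference passed the correction depended on how GABA cells were defined. With cells of at least 1 such UMI, which 9 venDG replicates could enter, Erbb4 was 2.86 ± 1.49 higher in 9 of 9 (exact permutation p = 0.00391, adjusted 0.0469). With cells thinned to 1500 UMIs it was found in 51.8% of GABA cells and 29.5% of the others in venDG, again higher in 9 of 9 (adjusted exact permutation p = 0.0469). Among low-ribosomal cells alone Erbb4 averaged 13.3 in GABA cells and 5.22 in the others of 6 venDG replicates (exact permutation p = 0.0938, adjusted 1), and among the rest 3.48 and 1.66 in 3 replicates.

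The peptide genes of venDG followed GABA cells less evenly. Sst in venDG averaged 3.97 against 0.0989, higher in 4 of 6 replicates (exact permutation p = 0.125, adjusted 0.5). Without venDG_FT replicate 3, which holds the cell with 81 UMIs, the difference went from 3.87 to 1.53. Cck in venDG averaged 4.23 against 0.832 and was higher in only 2 of 6. Of the 12 comparisons of the 6 class genes in both regions, 0 passed at the main setting.

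Levels per replicate are given next as UMIs per 10000 of all UMIs of the replicate, for replicates 1, 2, 4 and 5 of dorDG_FT and 1 to 5 of the other groups. In such sums fewer cells of a type and less RNA per cell cannot be told apart. Gad1 stood at 0.309, 0.203, 0.185 and 0.171 in dorDG_FT and 0.190, 0.138, 0.183, 0.247 and 0.222 in dorDG_Sham. It stood at 0.305, 0.362, 0.249, 0.136 and 0.517 in venDG_FT and 0.227, 0.192, 0.0908, 0.281 and 0.0358 in venDG_Sham. The groups overlapped in both regions, with the highest value in a venDG_FT replicate and the lowest in a venDG_Sham one.

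Gad2 stood at 0.0806, 0.0452, 0.0336 and 0.257 in dorDG_FT and 0.136, 0.138, 0.143, 0.0986 and 0.111 in dorDG_Sham. In venDG it stood at 0.181, 0.101, 0.131, 0.0136 and 0.137 with FT and 0.154, 0.177, 0.318, 0.0562 and 0.107 in Sham. Its group means, 0.104 to 0.163, lay closer together than the replicates of most groups. Slc32a1, the transporter gene, gave 13 UMIs in dorDG_FT, 2 in dorDG_Sham, 39 in venDG_FT and 10 in venDG_Sham. It was at 0 in 4 of 5 dorDG_Sham replicates, and the levels above 0 ran from 0.0336 to 0.102 in dorDG_FT and from 0.0572 to 0.105 in venDG_FT. Of the 9 Slc32a1 UMIs in dorDG_FT replicate 2, the highest of its group, 7 lay in 1 cell, without which it stood at 0.0226.

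Sst had its 4 highest levels in venDG_FT, which stood at 0.381, 0.210, 0.597, 0.0272 and 0.152, against 0.109, 0.0885, 0, 0.0337 and 0 in venDG_Sham. In dorDG it stood at 0.0269, 0.0678, 0.0504 and 0.0171 with FT and 0.0362, 0.0691, 0, 0.0164 and 0 in Sham. The venDG groups overlapped through venDG_FT replicate 4, and without the top cell of each replicates 1, 2 and 3 of venDG_FT stood at 0.20, 0.101 and 0.0659. Npy, often made together with Sst in hilar neurons, was at 0 in all venDG_Sham replicates and stood at 0.0381, 0.196, 0, 0 and 0.0457 in venDG_FT. Of 27 Npy UMIs in venDG_FT replicate 2, 20 lay in 1 cell. In dorDG Npy reached 0.282 in dorDG_FT replicate 2, where 15 of 25 UMIs lay in 1 cell, and 0.0672 in replicate 4, and 4 of 5 dorDG_Sham replicates were at 0.

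Vip gave 5 UMIs in dorDG_FT, 11 in dorDG_Sham, 20 in venDG_FT and 25 in venDG_Sham, and 1 replicate of venDG_Sham stood out at 0.545 against at most 0.0737 elsewhere in its group. Lhx6 gave 9 UMIs in the whole series, of which 6 lay in venDG_FT. The counts of Lhx6 are too few to read a difference between groups, and tests of Vip are given below. Cck stood at 1.41, 0.249, 0.151 and 0.428 in dorDG_FT and 0.208, 0.328, 0.0815, 1.38 and 0.0740 in dorDG_Sham. It stood at 0.629, 1.17, 0.971, 2.52 and 1.13 in venDG_FT and 0.645, 1.08, 0.590, 0.191 and 0.860 in venDG_Sham. The groups overlapped, and the top replicates lost much without 1 cell each: dorDG_FT replicate 1 then stood at 0.491, and venDG_FT replicates 4 and 5 at 0.931 and 0.588.

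Erbb4, the receptor gene, was the only one of the 9 with 741 UMIs or more in each group. It stood at 2.66, 2.71, 2.61 and 2.54 in dorDG_FT and 4.06, 3.87, 5.42, 2.48 and 3.70 in dorDG_Sham. Every dorDG_FT replicate lay below 4 of the 5 dorDG_Sham replicates and above the fifth, replicate 4, which also had the lowest low-ribosomal share of its group. In venDG it stood at 3.53, 2.27, 2.75, 1.97 and 3.42 with FT and 2.86, 3.70, 5.45, 2.35 and 3.01 in Sham, and the groups overlapped.

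**Figure D2:**
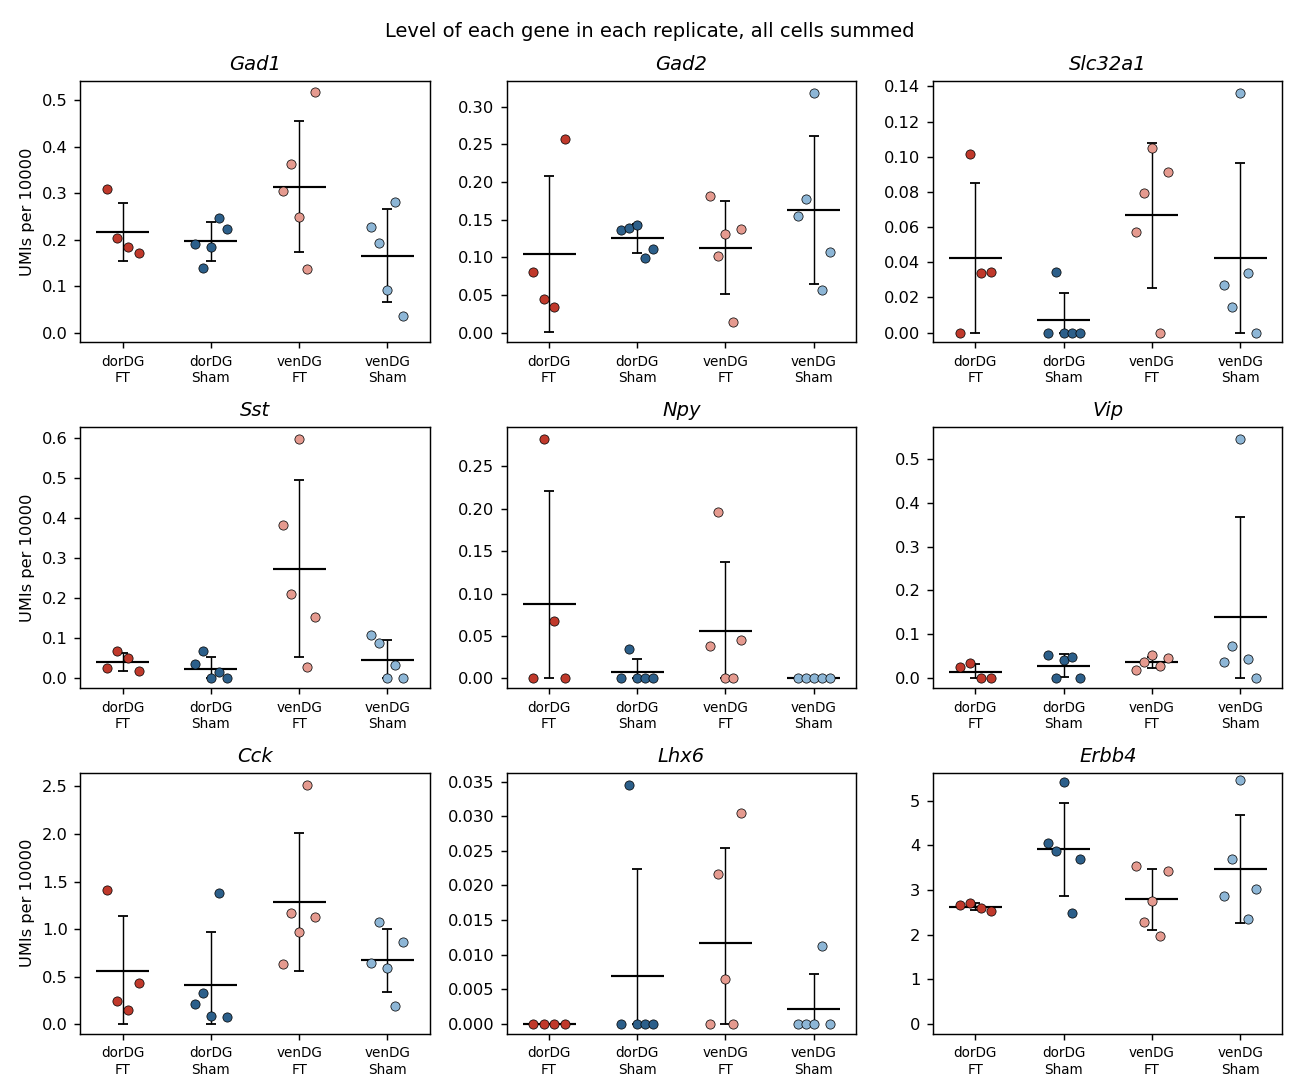
Level of each of the 9 genes in UMIs per 10000 in each replicate of dorDG_FT, dorDG_Sham, venDG_FT and venDG_Sham. Points are replicates, black lines are means and bars are ±1 SD, cut off at 0. Erbb4 in dorDG_FT lies between 2.54 and 2.71, and single replicates carry the means of Npy, Vip and Cck.

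Several of the 9 genes differed between the first and the second reaction. The reactions also differed in their share of low-ribosomal cells, and the design cannot tell these apart. In the 8 replicates with 2 reactions, Erbb4 averaged 2.18 in the first and 5.56 UMIs per 10000 in the second, a difference of 3.37 ± 1.32 (SD) that was positive in 8 of 8 (two-sided exact sign-flip permutation p = 0.00781, adjusted over the 9 genes 0.0352). Gad2 averaged 0.0662 and 0.273 and was also higher in the second in 8 of 8 (adjusted exact permutation p = 0.0352). Vip went the other way, from 0.0467 to 0.00863, lower in 7 of 8 (adjusted exact permutation p = 0.0469). The other genes did not pass, with Gad1 at 0.196 and 0.353 (adjusted exact permutation p = 0.0844) and Cck at 0.864 and 0.266 (adjusted 0.0703).

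The split of cells by their ribosomal share gave the same direction for Erbb4, Gad1, Gad2 and Sst, and the opposite one for Vip, Cck and Slc32a1. Erbb4 stood at 6.03 in low-ribosomal and 2.17 in other cells of dorDG, and at 5.80 and 1.96 in venDG. Gad1 stood at 0.405 and 0.186 over both regions and Gad2 at 0.286 and 0.0611, whereas Sst was at 0.119 and 0.156. Vip stood at 0.0545 in low-ribosomal and 0.0371 in other cells, Cck at 0.966 and 0.699 and Slc32a1 at 0.0727 and 0.0334. Low-ribosomal cells were the shallower, with a median of 1807 UMIs against 4579. With cells thinned to 1500 UMIs, Erbb4 was found in 26.3% of cells of first and 48.1% of second reactions, higher in 8 of 8, but 0 of the 9 genes passed the correction (adjusted exact permutation p = 0.0703 for Erbb4).

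**Figure D3:**
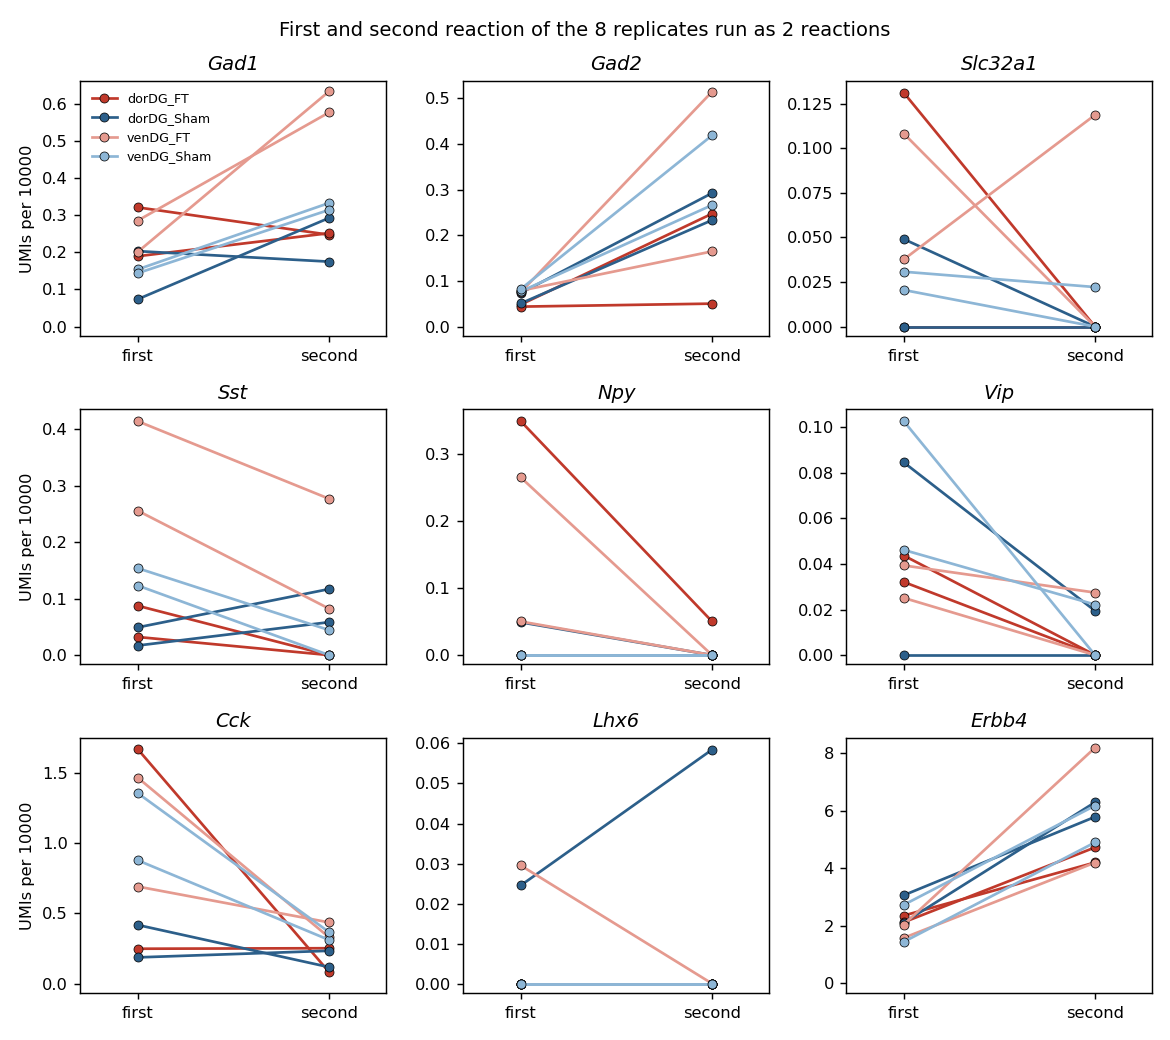
Level of each of the 9 genes in UMIs per 10000 in the first and the second reaction of the 8 replicates that had 2. Lines join the reactions of 1 replicate and are coloured by group. Erbb4 and Gad2 are higher in the second reaction in 8 of 8 replicates.

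FT was compared with Sham in dorDG by edgeR on summed counts of all cells, among genes that averaged 0.5 UMIs per 10000 or more. A gene was called where its adjusted p did not exceed 0.2 and its log2FC was 0.32 or more in either direction. Erbb4 was the only one of the 9 to pass the filter. It was not called, at a log2FC of -0.49 (SE 0.25, edgeR adjusted p = 0.216), so 0 of 1 members tested was called where 28.6% of the 4274 genes tested were. The low-ribosomal share, 23.0 ± 13.0% (SD, n = 4) in dorDG_FT and 51.2 ± 14.7% (n = 5) in dorDG_Sham, moved with this difference. Among cells with at least 2% ribosomal UMIs the log2FC was 0.03, and among low-ribosomal cells -0.22 (SE 0.24, edgeR adjusted p = 0.852).

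Within reactions the Erbb4 values of both treatments could be set side by side for replicates 1 and 2. First reactions of dorDG gave 2.36 and 2.13 UMIs per 10000 with FT and 2.11 and 3.07 in Sham. Second reactions gave 4.20 and 4.73 with FT and 6.29 and 5.79 in Sham. The first reactions overlapped and the second did not, with 2 values on each side. Other tools called Erbb4 lower, DESeq2 at -0.49 (adjusted p = 0.125, where 43.3% of genes were called) and limma on log2 means at -0.64 (adjusted p = 0.0856, where 48.2% were called). Without dorDG_Sham replicate 4 edgeR also called it, at -0.62 (adjusted p = 0.119, where 43.0% were called).

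With the filter lowered to 0.05 UMIs per 10000, 4 of the 9 genes could be tested in dorDG and 0 were called, where 0.545% of genes were. The edgeR log2FC was 0.31 (SE 0.30) for Gad1, -0.19 (SE 0.51) for Gad2 and 0.57 (SE 0.68) for Cck. The edgeR adjusted p over the 4 genes lay between 0.404 and 0.878. With no filter, Npy was called at 3.71 (SE 1.07, edgeR adjusted p = 0.187, where 1.09% of genes were called), and without dorDG_FT replicate 2, which holds 25 of its 29 UMIs in the group, it was not (1.63, adjusted p = 0.591). Among low-ribosomal cells Cck was called at 3.33 (SE 0.76, edgeR adjusted p = 0.168, where 0.525% were), and without dorDG_FT replicate 1 it did not reach the filter.

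In venDG, Cck and Erbb4 passed the filter and 0 of these 2 were called, and 0% of the 4079 genes tested were. The edgeR log2FC of FT against Sham was 0.95 (SE 0.42, p = 0.0362, adjusted p = 0.763) for Cck and -0.33 (SE 0.25, adjusted p = 0.777) for Erbb4. Without 1 replicate the value of Cck ran from 0.55 to 1.24. Of all genes 237 had an unadjusted p under 0.05, and DESeq2 called 22 (0.539%), neither member among them. With no filter 0.0158% of genes were called, again without a member. With the filter at 0.05, 7 of the 9 could be tested and 0 were called, among 0 of 13288 genes.

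Sst had the smallest unadjusted p of the 7, at a log2FC of 2.28 (SE 0.61, edgeR p = 0.00136, adjusted p = 0.893). Gad1 stood at 0.75 (SE 0.36, p = 0.0499), Slc32a1 at 1.16 (SE 0.68, p = 0.102) and Vip at -1.24 (SE 0.74, p = 0.107) by edgeR, all with the correction failed. Without the 25 cells rich in GABA transcripts, of which 17 lay in venDG_FT, Sst stood at 1.28 (SE 0.61, edgeR p = 0.0504) and Gad1 at 0.19 (edgeR p = 0.617). Gad1 was used to choose these cells, so its lower value without them follows from the choice. Npy, at 0 in venDG_Sham, is given no fold. In those replicates 3 UMIs would have been 0.0273 to 0.136 per 10000, a range that holds 2 of the 3 venDG_FT values above 0.

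Among InhibNeuron cells of dorDG, Erbb4 was the only one of the 9 to pass the filter. Its levels were 4.88, 3.0, 1.5 and 1.41 UMIs per 10000 in dorDG_FT replicates 1, 2, 4 and 5, which held 14, 5, 4 and 4 such cells. In dorDG_Sham they were 4.90, 7.03, 3.29 and 4.51 in replicates 1, 3, 4 and 5, with 47, 31, 16 and 26 cells, and replicate 2 held none. The groups overlapped through dorDG_FT replicate 1. The edgeR log2FC was -0.70 (SE 0.40, adjusted p = 0.369), so 0 of 1 was called, as were 0% of the 4657 genes (775 at an unadjusted p under 0.05, 308 or 6.61% called by DESeq2 and 645 or 13.8% by limma). No member was called with no filter, with the filter at 0.05 UMIs per 10000, or among cells under or over 2% ribosomal UMIs, where 2.87, 1.54, 0.0435 and 0.111% of genes were. It was called without dorDG_FT replicate 1, at -1.23 (edgeR adjusted p = 0.146, where 18.2% of genes were called), and without dorDG_Sham replicate 4, at -0.86 (adjusted p = 0.171, where 31.6% were).

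The share of cells that bear the InhibNeuron name was 4.86 ± 3.35% (SD, n = 4) in dorDG_FT and 17.1 ± 11.8% (n = 5) in dorDG_Sham, a difference of -12.3 percentage points (two-sided exact permutation p = 0.127). Low-ribosomal cells were 8, 1, 0 and 1 of the dorDG_FT cells above and 46, 31, 8 and 22 of the dorDG_Sham cells. Within them the Erbb4 log2FC was -0.23 (edgeR adjusted p = 0.945), and in the other InhibNeuron cells 0.12 (adjusted p = 0.997). Summed UMIs of Gad1, Gad2 and Slc32a1 in InhibNeuron were 8, 2, 2 and 4 in dorDG_FT and 13, 11, 6 and 6 in dorDG_Sham, too few for a test.

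Between regions, Cck and Erbb4 were tested and 0 of these 2 were called, where 0.216% of the 4161 genes were. Cck in dorDG against venDG stood at a log2FC of -0.96 (SE 0.46, edgeR p = 0.0502, adjusted p = 0.794) and Erbb4 at 0.03 (SE 0.18, edgeR p = 0.874). DESeq2 called 1.27% of genes, limma 0.0464% and edgeR with no filter 0.261%, none of them a member, and pairing by number left 0.168%. With the filter at 0.05, Sst was lower in dorDG at -2.0 (SE 0.56, edgeR p = 0.00138) and Vip at -1.35 (SE 0.64), but neither passed the correction (adjusted p = 0.267 and 0.740). Gad1 stood at -0.30 and Gad2 at -0.26 (edgeR adjusted p = 0.902 and 0.949). None of the 9 was called at that filter, where 0.247% of genes were.

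Whether the response to FT differed between regions was tested by the interaction in the same edgeR fit. Cck stood at -0.45 (SE 0.92, adjusted p = 0.891) and Erbb4 at -0.21 (SE 0.35, adjusted p = 0.868), so 0 of 2 were called, as were 0% of the 4161 genes (404 at an unadjusted p under 0.05, 8 or 0.192% called by DESeq2, 0 by limma). With dorDG and venDG samples of the same number paired, 412 genes were called (9.90%), and the values of the 2 members, -0.46 for Cck and -0.19 for Erbb4, remained short of a call (edgeR adjusted p = 0.866 and 0.685).

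Genes related to the 9 were followed as 4 lists. Of 10 genes of GABA handling, 2 passed the filter in dorDG, and both were called, where 28.6% of all genes were. Glul, whose enzyme makes glutamine in astrocytes, was higher with FT at a log2FC of 0.83 (SE 0.28, edgeR adjusted p = 0.164), and Gphn, which encodes the scaffold of inhibitory synapses, was lower at -0.97 (SE 0.32, adjusted p = 0.162). Of 15 transcription factors of interneurons 3 were tested and 1 was called, Prox1, lower at -0.85 (SE 0.25, edgeR adjusted p = 0.155). The median log2FC of these 3 was -0.54, against -0.04 over all genes tested. In dorDG Prox1 is also the factor of granule cells, and no dorDG call of these remained with a replicate block or in cells with at least 2% ribosomal UMIs, where 0 genes were called.

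Of 24 other interneuron class genes 3 were tested in dorDG and 0 called, with a median of -0.16, and of 20 receptors and ligands of the 9 genes 0 passed the filter. In venDG 3, 3, 4 and 0 genes of the lists were tested, in InhibNeuron 4, 3, 6 and 2, and between regions and in the interaction 2, 3, 3 and 0. None of them was called in those 4 comparisons, where the shares over all genes were those given above.

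Likeness of pattern was taken as Pearson's r of log2 levels over 88 sums of a dorDG cell type in a replicate, among 11228 genes. Erbb4 was most like Nbea (r = 0.81), Rabgap1l (0.76) and Necab1 (0.75). For Gad1 the closest were LOC686349 (0.50), Cdc14b (0.48) and Nrg2 (0.47), for Gad2 Tmem132d (0.50), Lppr1 (0.50) and Gfm1 (0.49), and for Cck Mad2l2 (0.43), Cx3cl1 (0.42) and Cend1 (0.41). Npy was closest to Trh at 0.73, which rests on the 5 sums in which Npy was above 0. The closest gene was Trh for Slc32a1 (0.41), Zfp512b for Sst (0.45), Zdhhc16 for Vip (0.35) and LOC100910765 for Lhx6 (0.29). These values are descriptions, since sums share replicates, reactions and depth.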

How the data were processed

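The authors processed reads with Cell Ranger 2.1.0 (per the labels' extract protocol) and deposited a table of raw UMI counts, genes by cells, per region, with cell type names for dorDG. The submitters' processing notes name build rn5 and Seurat 3 without a role. By the methods the authors filtered cells on mitochondrial share and on how many genes and UMIs were seen, and the text gives no step for doublets; no doublet caller was run here. Of 2228 venDG columns, 170 with a second suffix were left out, since 167 of them repeat a barcode of the same reaction. The deposited log-normalised venDG values, a transform of the counts, were not used.

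The rule for the 9 genes used no measured value. Earlier results of these data were known when the genes, the lists and the tests were chosen. Replicates are the labelled replicate numbers with all reactions summed, and levels are UMIs per 10000. Summed counts were tested with edgeR 4.0.16 (quasi-likelihood, TMM, R 4.3.3) among genes that averaged 0.5 UMIs per 10000 or more, and called where the adjusted p did not exceed 0.2 and the log2FC was 0.32 or more in either direction. DESeq2 1.42.0 and limma 3.58.1 (log2 with a pseudocount of 0.01) were alternatives. Shares and paired levels were compared by two-sided exact permutation or sign-flip tests (scipy 1.17.1) at 0.05. Intervals of shares are Wilson at 95%, a count of 0 was bounded by 3 counts, and intervals cover counting error only. Thinning drew 1500 UMIs per cell and left out 770 shallower cells. All 9 genes are named in each comparison, from the lists called genes only (the 3 with the largest log2FC per list), and for likeness the 3 genes with the highest r, among genes averaging 0.1 UMIs per 10000 or more over sums of 5 or more cells, with a pseudocount of 0.1.

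Pairs of replicates of a group differed beyond counting error (36 of 36 pairs, chi-square per degree of freedom 2.97 to 17.1). Same-numbered dorDG and venDG samples of a treatment deviated together, with correlations of 0.113 to 0.395 with FT and 0.210 to 0.564 in Sham. However, dorDG_FT replicate 5 and dorDG_Sham replicate 2 correlated better with a venDG sample of another number, so pairing by number is not certain. The main fits for region and interaction had no block, and the paired values are given beside them where counts moved. On simulated counts with known changes, edgeR recovered 57% of 2-fold and 100% of 4-fold changes for dorDG (4155 genes), 71 and 100% for venDG (3719), 22 and 100% for InhibNeuron (4519), 100 and 100% between regions (4041) and 27 and 97% for the interaction (4094). The simulation gave every gene the same fixed dispersion, not taken from the data, and changed only genes that passed the filter. Its rates therefore do not give the power of the tests above.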

Additional observations from a re-analysis of the deposited data

Results flagged for a closer look

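In 9 of 36 combinations of gene and group, the highest replicate stood farther from the others than Dixon's 95% limit allows (for values without many zeros chance flags about 1 in 20). In 4 of the 9, 1 replicate held 1 or 2 UMIs and the others 0, which passes this limit by its construction. In dorDG_Sham, replicate 2 was the only one above 0 for Slc32a1, Npy and Lhx6, each at 0.0346 UMIs per 10000 and 2 UMIs. Cck in dorDG_Sham replicate 4 stood at 1.38 (84 UMIs), against at most 0.328 in its group, and at 0.931 without its top cell. In venDG_FT, Npy stood at 0.196 in replicate 2 (27 UMIs, next 0.0457) and Cck at 2.52 in replicate 4 (185 UMIs, next 1.17). In venDG_Sham, replicate 3, with 42 cells, stood out for Slc32a1 at 0.136 (3 UMIs, next 0.0337) and for Vip at 0.545 (12 UMIs, next 0.0737), and replicate 4 was the only one above 0 for Lhx6, at 0.0112 (1 UMI).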

How the results depend on the processing

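The precision was set by few UMIs of every gene but Erbb4, by single cells that carry Sst, Npy and Cck, and by unequal shares of low-ribosomal cells. Of the values that answer a comparison, 190 kept their direction and side of the threshold under an alternative, 3 came past it, 18 moved and 8 reversed. Of the values of single genes, 433 kept both, 24 lost and 7 gained a call and 29 reversed. Settings with a limit of 4 UMIs, low-ribosomal cells alone, or without the 25 cells rich in GABA transcripts were chosen after seeing the data. Where no cause is given, the cause was not tested.

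The dorDG difference in GABA cell share (percentage points) was -0.0552 thinned, 0.698 at 3 UMIs, 0.785 at 4 UMIs, -12.3 by the InhibNeuron name and -0.28 to 0.81 without 1 replicate (below 0 without dorDG_FT replicate 5 and without dorDG_Sham replicate 5). In venDG it was -0.217 at 1 UMI, -1.49 thinned and -0.394 in cells with at least 2% ribosomal UMIs, and above 0 at 3 and 4 UMIs, in low-ribosomal cells (shares of 7.43 and 3.09%) and without 1 replicate (0.557 to 1.63). Between regions it was 0.781 at 1 UMI and -0.862 at 3 UMIs. Of the 6 class genes in GABA cells, 1 comparison passed at 1 UMI and 1 when thinned. Differences that turned were Lhx6 at 1 UMI (0.00790 in dorDG, -0.00195 in venDG), thinned shares of Sst (-0.213) and Cck (1.54) in dorDG and Lhx6 (-0.0842) in venDG, Npy (-0.0771) and Lhx6 (-0.00618) in venDG cells with at least 2% ribosomal UMIs, Vip in low-ribosomal dorDG cells (-0.0228), and Vip (-0.0232) and Cck (0.659) in dorDG at 4 UMIs. Without 1 replicate, Vip ran from -0.0291 to 0.0262 and Sst from -0.00898 to 0.151 in dorDG, and Cck from -0.0420 to 4.30 and Lhx6 from -0.00584 to 0.0394 in venDG. Between reactions 0 genes passed when thinned, with Lhx6 at -0.0749, and 0 to 3 without 1 replicate, with Lhx6 from -0.00422 to 0.00485. The share of Gad1 cells with Gad2 was 5.81% thinned.

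In dorDG 1 member was called by DESeq2, 1 by limma, 1 with no filter, 1 in low-ribosomal cells and 0 to 1 without 1 replicate, and in InhibNeuron 0 to 1 without 1 replicate. The log2FC of Erbb4 in cells with at least 2% ribosomal UMIs was 0.0298 in dorDG (0.0446 with the filter at 0.05), 0.123 in InhibNeuron and 0.297 in the interaction (0.264 with that filter). Between regions Erbb4 was -0.000828 with that filter and -0.0414 to 0.148 without 1 replicate. The interaction of Cck was 0.771 by limma and -1.48 to 0.696 without 1 replicate.

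Over all genes, the 1221 dorDG calls became 1849 by DESeq2, 2117 by limma, 207 with no filter, 73 with the filter at 0.05, 0 in cells with at least 2% ribosomal UMIs, 23 in low-ribosomal cells and 0 to 1969 without 1 replicate (0 without dorDG_FT replicate 4 or 5 or dorDG_Sham replicate 3 or 5, and 1 without dorDG_Sham replicate 1). The 0 venDG calls became 22 by DESeq2 and 3 with no filter. The 0 InhibNeuron calls became 26 with DESeq2 size factors, 308 by DESeq2, 645 by limma, 482 with no filter, 200 with the filter at 0.05, 5 and 2 in cells with at least and under 2% ribosomal UMIs and 0 to 1468 without 1 replicate. The 9 regional calls became 53, 2, 50, 33 and 0 by DESeq2, by limma, with no filter, with the filter at 0.05 and in cells with at least 2% ribosomal UMIs, and 1 to 49 without 1 replicate. The 0 interaction calls became 8 by DESeq2 and 335 without dorDG_Sham replicate 2.

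With a replicate block, FT against Sham gave 0 calls in dorDG (Erbb4 -0.34, edgeR adjusted p = 0.332), 0 in venDG (Cck 0.87, adjusted p = 0.755) and 785 in InhibNeuron (Erbb4 -0.61, adjusted p = 0.359). The supplement says that FT and Sham samples of a replicate were handled in parallel for the bulk tissue. No source used here says it of these samples. In the labels, however, reaction numbers run by replicate number, with FT and Sham in each run. Correlations of same-numbered FT and Sham samples went down to -0.249 in dorDG and -0.201 in venDG. Not every sample correlated best with its own number, so whether this block applies is not certain. Between regions, where same-numbered samples of a treatment deviated together, the replicate block gave 7 calls (Cck -1.18, edgeR adjusted p = 0.533). In the interaction it gave 412 calls, and it changed no other call of a member.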
